A study of Mus musculus with 12 samples.

Results

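C-type lectin receptors were followed in the abdominal fat of obese diabetic mice after injection of adenoviruses that express short hairpin RNAs (shRNAs). The receptors were taken by name as every gene whose symbol begins with Clec and a digit or with Cd209, plus Olr1. This gave 40 genes of the 23185 named genes on the arrays, each measured by 1 probe set. The 12 mice, BKS.Cg-Dock7m +/+ Leprdb/J animals with no working leptin receptor, were 12 weeks old. Fat was frozen 1 week after the injection. The control group received 4e9 plaque-forming units of a control shRNA virus. The LCN13 group received 2e9 of a virus against LCN13 (a lipocalin) with 2e9 of the control virus, and the TSC22D4 group received 2e9 of a virus against TSC22D4 (a transcriptional regulator) with 2e9 of the control virus. In the combined group the dose was 2e9 of either gene-directed virus, without any control virus. The amount of control virus therefore differed in every comparison with the control group and cannot be told apart from the gene-directed virus. Although the labels call the controls wild type in one field, all 4 groups are of the Leprdb strain. Each group held 7 animals, of which 3, called representative in the labels, were put on arrays.

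C-type lectin receptors recognise sugars, lipids or proteins on microbes, dying cells and neighbouring cells through a shared fold. Most sit on macrophages, dendritic cells and other myeloid cells. Activating members such as Dectin-1 and Mincle signal through the kinase Syk and the adaptor Card9, inhibitory members carry a motif that recruits phosphatases, and others mainly take up their ligand. In obese fat, macrophages and dendritic cells make up a large part of the non-adipocyte cells.

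The deposited values were log2 signals from 5.62 to 14.4 with a median of 6.31 over the table, and all levels and differences below are on this log2 scale. The number of arrays limits the precision. Pearson correlations across probe sets were 0.994 to 0.998 for pairs of arrays of 1 group. For pairs of different groups they were 0.991 to 0.997, so the ranges overlapped. Markers fitted the labelled tissue, with mean levels of 12.7 for Plin1, which coats the fat droplet, and 12.3 for Adipoq (adiponectin), but the liver gene Alb also had a mean level of 9.49. Alb had means of 8.87 ± 0.882 (SD, n = 3) in controls, 10.7 ± 0.687 in the LCN13 group, 9.03 ± 0.486 in the TSC22D4 group and 9.36 ± 1.82 in the combined group. None of its differences from control passed limma. Mesothelial markers, averaged over the list relative to the mean over all arrays, lay at 0.51 and 0.54 in LCN13 replicates 5 and 6 and at -0.13 in LCN13 replicate 8. On the same scale hepatocyte markers lay at 0.28 in LCN13 replicates 5 and 6, at 0.34 in combined replicate 13 and from -0.25 to 0.06 on the others. The part of either in the receptor differences was not tested. Losses of receptor calls that involve the LCN13 group are therefore also given for the fit without replicates 5 and 6. A fit without replicate 8 leaves replicates 5 and 6 alone in that group. The targeted genes did not separate the groups. Tsc22d4 had means of 7.68 ± 0.171 (SD, n = 3) in controls, 7.67 ± 0.0951 in the TSC22D4 group and 7.61 ± 0.0279 in the combined group. Obp2a, the current symbol of Lcn13, had means of 5.73 ± 0.00995 in controls, 5.72 ± 0.0161 in the LCN13 group and 5.72 ± 0.0126 in the combined group, all below the table median.

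Levels of the receptors spanned much of the range of the arrays. Of the 40 probe sets, 20 had a mean above the table median of 6.31 and 20 lay below it, where differences are compressed. The Cd209 family, homologues of human DC-SIGN, had 5 of 7 measured members above the median, and Cd209h was not analysed here. The genes around Dectin-1 had 5 of 7 above it, those around Dectin-2 and DCIR 4 of 9, other myeloid and hepatic receptors 1 of 4, the Clec2 ligands of natural killer (NK) cell receptors 1 of 7, and secreted, endothelial and other Clec genes 4 of 6. The probe sets of Clec2d, Clec4a3 and Clec12a were the brightest, with means of 11.9, 11.7 and 11.5. Signals of different probe sets are not compared as amounts of RNA. Over the 12 arrays the range was widest for Olr1 (1.43) and Cd209a (1.20) and narrowest for Clec2h (0.0459).

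**Figure D1:**
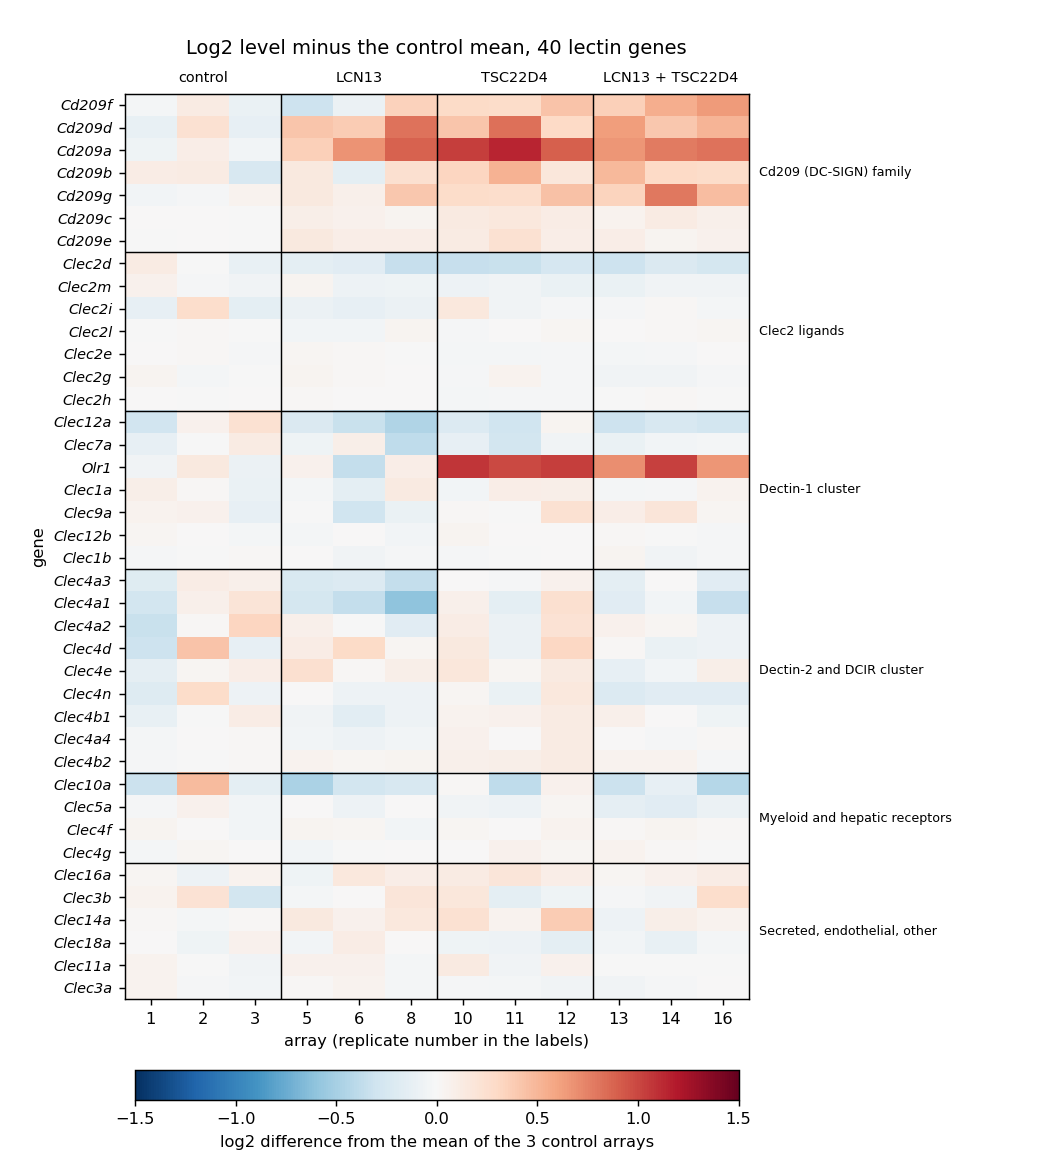
Difference of each array's log2 signal from the control mean (colour) for the 40 receptor genes (rows, by role) on the 12 arrays (columns, by group). Olr1 stands out on the 6 arrays with the TSC22D4 virus, with differences from the control mean that average 1.03 and 0.79, and Cd209a on all 9 arrays with a gene-directed virus.

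Olr1 and Cd209a carried the largest differences, and both rose about 2-fold against control in the TSC22D4 group. Cd209a also rose in the LCN13 group, which received no TSC22D4 virus. Against control, 3 of the 40 receptors passed limma (an adjusted p under 0.05 over all 23185 genes) in the TSC22D4 group, namely Olr1, Cd209a and Cd209c, all higher, where 1.17% of all genes passed, 0.293% as higher and 0.88% as lower. In the LCN13 group 1 of 40 passed, Cd209a, higher, where 1.44% of all genes passed, 0.397% as higher and 1.04% as lower. In the combined group 2 of 40 passed, Olr1 and Cd209a, both higher, where 1.34% of all genes passed, 0.315% as higher and 1.03% as lower. The receptors as a list did not move far. Their median difference was 0.04 in the TSC22D4 group, -0.01 in the LCN13 group and 0.0013 in the combined group, beside -0.0022, 0.0040 and 0.0015 over all genes. The 3 comparisons share the control arrays. In bulk fat, fewer cells of a type and less RNA per cell cannot be told apart, which holds for every result below.

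**Figure D2:**
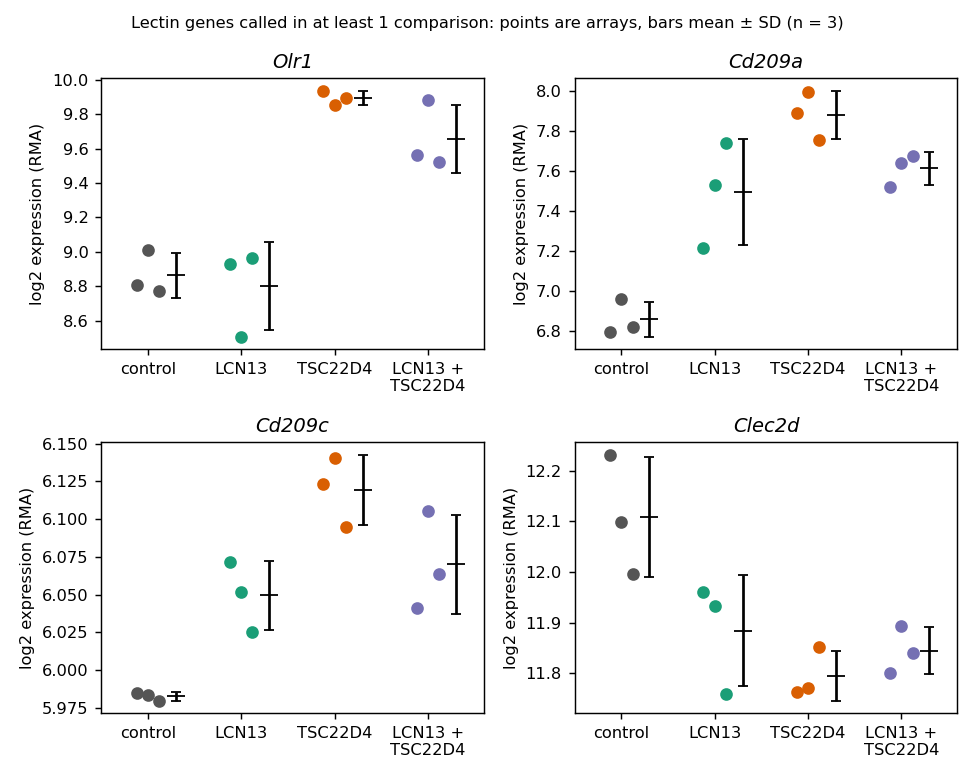
Log2 signal of each array (points) with the mean and SD of each group of 3 (bars) for the 4 receptors that passed limma in at least 1 comparison. Olr1 separates the 6 arrays with the TSC22D4 virus from the 6 without it, while Cd209a, Cd209c and Clec2d separate the 3 controls from the other 9.

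Olr1 encodes LOX-1, a scavenger receptor for oxidised low-density lipoprotein found on endothelium, macrophages and adipocytes, and it lies at the end of the cluster of genes around Dectin-1. Its promoter, from 250 bases before to 50 after the start of the gene, is shown because this gene gave the clearest separation of the viruses. It is taken from RefSeq (GRCm38.p6, chr6:129507116-129507415, minus strand), and capitals mark matches, on either strand, to the AP-1 motif TGACTCA, the PU.1 core GAGGAA and the nuclear receptor site AGGTCA.
Olr1: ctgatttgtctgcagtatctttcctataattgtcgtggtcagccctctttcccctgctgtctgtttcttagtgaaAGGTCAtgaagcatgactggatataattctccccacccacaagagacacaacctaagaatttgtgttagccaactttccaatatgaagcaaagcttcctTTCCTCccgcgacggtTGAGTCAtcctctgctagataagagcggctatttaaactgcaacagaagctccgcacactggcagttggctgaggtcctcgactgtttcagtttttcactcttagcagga
Counted from the first base printed, the AP-1 match covers bases 191 to 197, the PU.1 match bases 175 to 180 and the nuclear receptor match bases 76 to 81. The motifs do not overlap each other in this window. Of 32851 RefSeq promoters of the same length, 5.20% hold the AP-1 motif, 28.3% the PU.1 core and 16.3% the nuclear receptor site, beside 6, 17 and 8 of the 34 receptors with a promoter in the table. Here and for the promoters below, the shares are per promoter, while a receptor counts if any of its promoters holds the motif. The numbers are therefore not on the same footing. A match is a description of the letters and not a site.

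Olr1 signals were 8.81, 9.01 and 8.77 in controls, 8.93, 8.50 and 8.96 in the LCN13 group, 9.94, 9.85 and 9.89 in the TSC22D4 group, and 9.56, 9.88 and 9.52 in the combined group. All 6 arrays with the TSC22D4 virus lay above all 6 without it, which held for 0.643% of all genes. Olr1 was the only one of the 40 receptors with that separation, and none was separated in the other direction, where the share of all genes was 0.492%. The means were 8.86 ± 0.129 (SD, n = 3) in controls, 8.80 ± 0.256 in the LCN13 group, 9.89 ± 0.0420 in the TSC22D4 group and 9.65 ± 0.198 in the combined group.

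Against control Olr1 rose by 1.03 (SE 0.133, 95% interval 0.73 to 1.33, limma adjusted p = 0.00517) in the TSC22D4 group, a 2.04-fold difference. In the combined group it rose by 0.79 (0.49 to 1.09, limma adjusted p = 0.0212), a 1.73-fold difference. The LCN13 group differed from control by -0.06, with an interval from -0.36 to 0.24 (limma adjusted p = 0.911). Averaged over the presence of the LCN13 virus, Olr1 rose by 0.94 with the TSC22D4 virus (0.73 to 1.16, limma adjusted p = 0.00131). In this averaged comparison 3 of the 40 receptors passed, Olr1, Cd209a and Cd209c, all higher, where 1.39% of all genes passed, 0.561% as higher and 0.832% as lower.

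The TSC22D4 group exceeded the LCN13 group in Olr1 by 1.10 (0.80 to 1.39, limma adjusted p = 0.0188). These groups received the same amount of control virus, and the controls do not enter this difference. Olr1 was the only receptor of 40 to pass here, where 1.03% of all genes passed, 0.457% as higher and 0.574% as lower. The combined group exceeded the LCN13 group by 0.86 (0.56 to 1.16), but the limma adjusted p was 0.109. In that comparison 0 of 40 receptors passed with limma, against 6 at an unadjusted p under 0.05, and of all genes 2 passed (0.00863%, with 0.00431% in each direction). The Olr1 difference passed among genes above the median level (0.0477) and without LCN13 replicate 8 (0.94, limma adjusted p = 0.0464). It differed from the TSC22D4 group by -0.24, with an interval from -0.54 to 0.06 (limma adjusted p = 0.777). No gene passed in that comparison (0%), against 6 of the 40 receptors at an unadjusted p under 0.05. The interaction of the viruses was -0.18 for Olr1 (-0.60 to 0.25, limma adjusted p = 0.953), and 0 of 40 receptors passed it with limma (0.397% of all genes did, 0.0302% with a negative value), against 8 at an unadjusted p under 0.05. The averaged LCN13 effect also gave 0 of 40, where 1.08% of all genes passed, against 6 at an unadjusted p under 0.05. In the moderated F test over the 4 groups 3 of 40 passed, Olr1 (limma adjusted p = 0.00507), Cd209a (0.0114) and Cd209c (0.0492), where 1.61% of all genes passed.

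The call of Olr1 in the TSC22D4 group and the averaged call held when any 1 array was left out, with adjusted p-values up to 0.0326 and 0.00701. The call in the combined group was lost without control replicate 1 or 3 or combined replicate 13 or 14 (adjusted p up to 0.0748), and when only the arrays of both groups were fitted (0.0961). The call of the TSC22D4 group against the LCN13 group was lost without LCN13 replicate 5 or 6 or any of TSC22D4 replicates 10, 11 and 12 (adjusted p up to 0.0727) and with the arrays of those groups alone (0.0511). Without LCN13 replicates 5 and 6 that difference was 0.93 (limma adjusted p = 0.302).

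No other gene of the cluster around Dectin-1 passed against control. On the chromosome Olr1 follows Clec12a, Clec12b, Clec1b, Clec9a, Clec1a and Clec7a in the RefSeq gene order. Clec7a (Dectin-1), the receptor of fungal beta-glucan, differed by -0.15, -0.12 and -0.05 in the TSC22D4, LCN13 and combined groups (limma adjusted p = 0.700, 0.749 and 0.965). Clec9a, which marks the dendritic cells that take up dead cells, differed by 0.08, -0.14 and 0.11, and Clec1b, the podoplanin receptor of platelets, lay below the table median. In the LCN13 group all 7 genes of the cluster had differences below 0, from -0.33 to -0.01, with 0 passing limma and 1 at an unadjusted p under 0.05.

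Clec12a, an inhibitory receptor that senses uric acid crystals, had the third brightest probe set of the 40. It had 11.36, 11.72 and 11.88 in controls, 11.44, 11.32 and 11.21 in the LCN13 group, 11.45, 11.36 and 11.69 in the TSC22D4 group, and 11.34, 11.42 and 11.38 in the combined group. Control replicate 1 lay among the other groups, so the groups overlapped. The differences from control were -0.33, -0.16 and -0.28 in the LCN13, TSC22D4 and combined groups (limma adjusted p = 0.315, 0.728 and 0.486).

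Differences from control lay mostly above 0 in the Cd209 family, and Cd209a, a homologue of DC-SIGN found on dendritic cells, rose in each group. All 7 measured members had differences above 0 in the TSC22D4 group (median 0.33, range 0.14 to 1.02) and in the combined group (median 0.51, range 0.07 to 0.75), and 6 of 7 in the LCN13 group (median 0.12, range -0.02 to 0.64). Of the 7, 2 passed limma in the TSC22D4 group and 1 in each of the others, and 6, 6 and 4 had an unadjusted p under 0.05 in the TSC22D4, combined and LCN13 groups. The genes are near-identical in parts and lie side by side in the RefSeq order Cd209a, e, d, b, c, f, g, so single members may share probe signal.

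**Figure D3:**
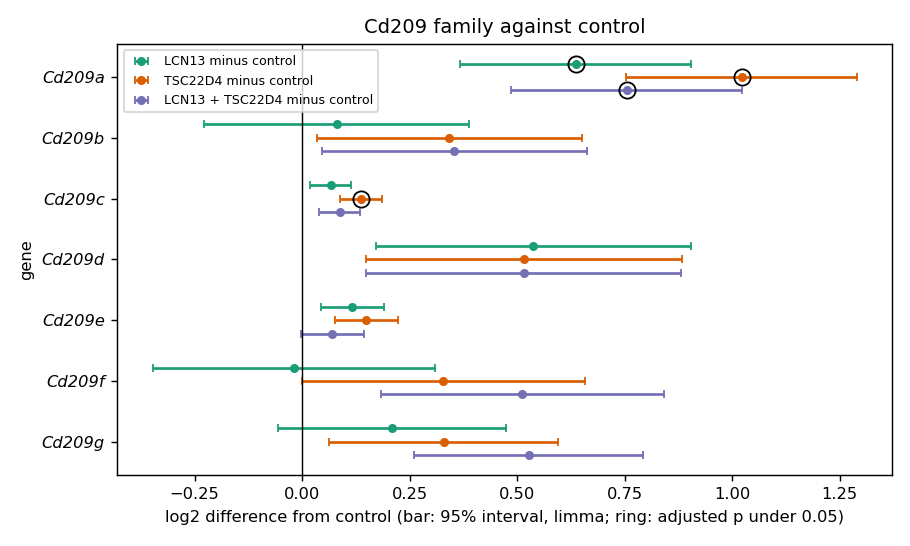
Log2 difference from control (points) with its 95% interval (bars) for the 7 measured Cd209 genes in each group with a gene-directed virus, with a ring where limma's adjusted p was under 0.05. Cd209a is ringed in all 3 groups at 0.64, 1.02 and 0.75, Cd209c is ringed in the TSC22D4 group at 0.14, and only Cd209f in the LCN13 group lies below 0, at -0.02.

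The promoter of Cd209a (RefSeq, GRCm38.p6, chr8:3748935-3749234, minus strand) is shown because this was the receptor that passed against control in all 3 groups. Capitals mark its match, on the antisense strand at bases 67 to 72, to the TATA box letters TATAAA, held by 13.6% of all promoters and by 11 of the 34 receptors.
Cd209a: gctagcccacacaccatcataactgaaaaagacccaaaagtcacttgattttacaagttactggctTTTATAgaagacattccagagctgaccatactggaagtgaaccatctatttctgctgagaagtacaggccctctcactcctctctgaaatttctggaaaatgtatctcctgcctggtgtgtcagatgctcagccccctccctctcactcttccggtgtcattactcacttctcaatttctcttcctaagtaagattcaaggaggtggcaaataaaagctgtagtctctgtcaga
No match to the interferon-stimulated response element (GAAA, any 2 bases, GAAA), to TGACTCA, to GAGGAA or to AGGTCA was found in this window, which says only that these letters are not in it.

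Cd209a had 6.79, 6.96 and 6.82 in controls, 7.21, 7.53 and 7.74 in the LCN13 group, 7.89, 8.00 and 7.75 in the TSC22D4 group, and 7.52, 7.64 and 7.67 in the combined group. Every array with a gene-directed virus lay above every control, and each TSC22D4 array lay above every LCN13 and combined array. The means were 6.86 ± 0.0887 (SD, n = 3) in controls, 7.49 ± 0.265 in the LCN13 group, 7.88 ± 0.122 in the TSC22D4 group and 7.61 ± 0.0816 in the combined group.

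Against control Cd209a rose by 1.02 (SE 0.120, 95% interval 0.75 to 1.29, limma adjusted p = 0.00288) in the TSC22D4 group, 2.03-fold. It rose by 0.75 (0.49 to 1.02, limma adjusted p = 0.0157) in the combined group and by 0.64 (0.37 to 0.91, limma adjusted p = 0.0353) in the LCN13 group, 1.69-fold and 1.55-fold. The mean of the 3 gene-directed groups exceeded control by 0.80 (0.58 to 1.02, limma adjusted p = 0.00252). The TSC22D4 and LCN13 groups differed by 0.39 (0.12 to 0.65, limma adjusted p = 0.147), and the combined group differed from the TSC22D4 group by -0.27 (-0.54 to 0.0021, limma adjusted p = 0.727). Averaged over the presence of the LCN13 virus, the Cd209a difference with the TSC22D4 virus was 0.57, which passed. The combined group exceeded the LCN13 group by only 0.12, which did not pass. The interaction was -0.90 (-1.28 to -0.52), so the difference made by both viruses was smaller than the sum of the single ones, but it did not pass (limma adjusted p = 0.0833). It passed with a variance trend (0.0431), among genes above the median level (0.0214), without LCN13 replicate 5 (-1.04, limma adjusted p = 0.0155) and without LCN13 replicates 5 and 6 (-1.15, limma adjusted p = 0.0323). The difference between the TSC22D4 and LCN13 groups passed with array weights (0.0435) and without LCN13 replicate 8 (0.0479), which leaves LCN13 replicates 5 and 6.

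The call in the TSC22D4 group held without any 1 array (adjusted p up to 0.0198). The call in the combined group was lost without control replicate 3 or combined replicate 14 or 16 (up to 0.0636). The call in the LCN13 group was lost in 9 of 12 cases, all but those without LCN13 replicate 5 or TSC22D4 replicate 11 or 12 (up to 0.127). It was also lost with array weights (0.48, limma adjusted p = 0.0750) and with the arrays of those groups alone (0.213). Without LCN13 replicates 5 and 6, which leaves 1 LCN13 array taken to vary like the other groups, the difference was 0.88 (limma adjusted p = 0.0192).

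Cd209c (SIGNR2) had a dim probe set and small differences between tight arrays. Its signals were 5.98 on each control, 6.07, 6.05 and 6.03 in the LCN13 group, 6.12, 6.14 and 6.09 in the TSC22D4 group, and 6.04, 6.11 and 6.06 in the combined group. All lay below the table median, and the controls, with an SD of 0.00276, lay below the other 9 arrays. It rose by 0.14 in the TSC22D4 group (0.09 to 0.18, limma adjusted p = 0.0153), and differed by 0.07 and 0.09 in the LCN13 and combined groups (limma adjusted p = 0.213 and 0.101). The call was lost when control replicate 2 or 3, or TSC22D4 replicate 10 or 11, was left out (up to 0.0745) and with the arrays of those groups alone (0.0778). A change of 0.14 is 1.10-fold on these values, near the lower end where RMA compresses differences.

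The other Cd209 genes are described array by array although none passed, a choice made after their values were seen. Cd209d (SIGNR3) had 9.02, 9.36 and 9.02 in controls, 9.55, 9.51 and 9.95 in the LCN13 group, 9.55, 9.96 and 9.44 in the TSC22D4 group, and 9.76, 9.54 and 9.64 in the combined group. Its groups did not overlap with control and differed from it by 0.54, 0.52 and 0.52 in that order (limma adjusted p = 0.187, 0.223 and 0.229). Cd209g (SIGNR7) had 6.55, 6.57 and 6.64 in controls, 6.73, 6.67 and 6.99 in the LCN13 group, 6.86, 6.85 and 7.03 in the TSC22D4 group, and 6.92, 7.37 and 7.05 in the combined group. The combined group differed from control by 0.53 (0.26 to 0.79, limma adjusted p = 0.0786), and passed with array weights (0.0489) and among genes above the median level (0.0312).

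Cd209f (SIGNR8) did not separate the LCN13 group, whose arrays at 10.57, 10.79 and 11.22 lay on both sides of the controls at 10.84, 11.00 and 10.78. The TSC22D4 arrays at 11.16, 11.15 and 11.30 and the combined arrays at 11.23, 11.42 and 11.51 lay above the controls, with differences of 0.33 and 0.51 (limma adjusted p = 0.425 and 0.179). The combined difference passed without LCN13 replicate 8 (limma adjusted p = 0.0357). No LCN13 array enters this difference, which stayed at 0.51 there and without LCN13 replicates 5 and 6. Only the variance estimate and the adjustment changed. Without LCN13 replicate 8, Cd209f also passed between the TSC22D4 and LCN13 groups (0.53, limma adjusted p = 0.0399). It also passed there between the combined and LCN13 groups (0.71, limma adjusted p = 0.0404) and in the F test (0.0255). In that fit the LCN13 group holds only replicates 5 and 6, the arrays with the high mesothelial and hepatocyte markers. The averaged TSC22D4 effect passed there (0.52, limma adjusted p = 0.00755) and with array weights, a variance trend or genes above the median level (0.0421, 0.0438 and 0.0343). Cd209b (SIGNR1), known from marginal zone macrophages of the spleen, had 7.10, 7.11 and 6.75 in controls, 7.14, 6.83 and 7.23 in the LCN13 group, 7.31, 7.51 and 7.16 in the TSC22D4 group, and 7.48, 7.28 and 7.26 in the combined group. The LCN13 arrays overlapped the controls, and the differences were 0.08, 0.34 and 0.35 in the LCN13, TSC22D4 and combined groups (limma adjusted p = 0.883, 0.362 and 0.366). Cd209e (SIGNR4), below the table median, had 5.82, 5.83 and 5.82 in controls, 5.97, 5.92 and 5.92 in the LCN13 group, 5.94, 6.05 and 5.92 in the TSC22D4 group, and 5.92, 5.87 and 5.88 in the combined group. No array of the other groups overlapped the controls, and the differences were 0.12, 0.15 and 0.07 (limma adjusted p = 0.155, 0.0766 and 0.488).

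Arrays that do not overlap give a count that needs no model. The genes counted are not independent, since the Cd209 probe sets may share signal, and the comparisons share the control arrays. Cd209c and Cd209e lay below the table median, with control SDs of 0.00276 and 0.00416, so small differences sufficed for them. In the TSC22D4 group 11 of the 40 receptors (27.5%) lay wholly above control, beside 8.27% of all genes, and 3 (7.5%) wholly below, beside 8.38%. The 11 were the 7 Cd209 genes, Olr1, Clec4b2, Clec14a and Clec16a. In the combined group 8 (20%) lay above, beside 7.72%, namely Olr1 and the 7 Cd209 genes, and 2 (5%) below, beside 7.22%. In the LCN13 group 7 (17.5%) lay above, beside 8.75%, of which 5 were Cd209 genes, and 3 (7.5%) below, beside 6.93%. Across all 9 arrays with a gene-directed virus, Cd209a, Cd209c, Cd209d, Cd209e and Cd209g (12.5% of the receptors) lay above all 3 controls, beside 1.10% of genes, and Clec2d (2.5%) lay below them, beside 1.80%.

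Markers of the cells known to carry these receptors were compared in the same way. Of all genes 1.17%, 1.44% and 1.34% passed against control in the TSC22D4, LCN13 and combined groups. Of 22 dendritic cell markers, 0 passed limma in any comparison with control and 3 in each had an unadjusted p under 0.05, with medians of 0.03, 0.02 and -0.0017 in the TSC22D4, LCN13 and combined groups. Their summed linear signal ran from 23929 to 25127 in controls, 24124 to 25832 in the TSC22D4 group, 25775 to 27229 in the LCN13 group and 24099 to 25310 in the combined group. The defining markers Flt3 and Zbtb46 had means of 6.37 and 6.78, close to the table median, and Itgax 9.75. Siglech, of plasmacytoid dendritic cells, lay below the median at 6.08, and 0 of the 9 measured genes of that list passed.

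Macrophage markers, 20 of 22 measured, had medians of -0.07, -0.12 and -0.14 in the TSC22D4, LCN13 and combined groups. Of these only Folr2 passed, with a fall of 0.37 in the LCN13 group (limma adjusted p = 0.0457). The summed signal ran from 64203 to 73587 in controls, 61561 to 67984 in the TSC22D4 group, 60131 to 63521 in the LCN13 group and 60488 to 65881 in the combined group. Adgre1, a surface receptor that marks mouse macrophages, had means of 11.7, 11.6, 11.5 and 11.6 in the control, TSC22D4, LCN13 and combined groups, and Csf1r 11.8, 11.8, 11.7 and 11.6. Endothelial markers, of interest for Olr1, gave 0 of 16 passing in these comparisons, with medians from -0.05 to 0.003. Cdh5, the cadherin of endothelial junctions, had means of 12.8 in controls and 12.7 in the TSC22D4 group. Adipocyte markers gave 0 of 13 passing, with a median of 0.03 in each group and sums between 111645 and 118249 over all arrays. The part of any cell type in the rise of Olr1 or Cd209a was not tested.

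Neutrophil and monocyte markers had summed signals of 18264 to 21048 in the TSC22D4 group, beside 14251 to 18573 in controls, 17727 to 18321 in the LCN13 group and 15114 to 18956 in the combined group. Of 17 measured genes Ly6c2 fell in the TSC22D4, LCN13 and combined groups, with differences of -0.82, -0.87 and -1.01 (limma adjusted p = 0.0071, 0.00422 and 0.00158). Plac8 fell in the combined group, with a difference of -1.44 (limma adjusted p = 0.0273). S100a8 had means of 8.61 ± 0.705 in the TSC22D4 group, 7.90 ± 0.736 in the combined group, 7.38 ± 0.201 in controls and 7.04 ± 0.383 in the LCN13 group. Its part in the Olr1 difference was not tested. Platelet, T cell and B cell lists gave 0 of 10, 0 of 14 and 0 of 14 passing in each comparison with control. Red blood cell genes stood apart in the combined group. Of 5 measured, all 5 were above control there (median 0.88) with 0 passing limma and 4 at an unadjusted p under 0.05, and the medians were 0.18 and 0.02 in the TSC22D4 and LCN13 groups. Their list mean relative to all arrays was 0.68, 0.41 and 0.47 on the combined arrays and between -0.66 and 0.24 on the others. Its part in the receptor differences of the combined group was not tested.

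The genes around Dectin-2 and DCIR, whose products include activating receptors that pair with the Fc receptor gamma chain and inhibitory ones, gave no call with all arrays weighted equally and 1 prior variance for all levels. In the TSC22D4 group all 9 had differences above 0, from 0.02 to 0.12, while in the LCN13 group 6 of 9 were below 0, from -0.41 to 0.14. With limma 0 of 9 passed in any comparison with control, and 2, 2 and 0 had an unadjusted p under 0.05 in the TSC22D4, LCN13 and combined groups. Clec4n (Dectin-2) and Clec4e (Mincle), receptors of fungal and mycobacterial surface molecules, lay below the table median, and differed from control by -0.18 to 0.12 over the 3 groups. Clec4d (MCL), the partner of Mincle, differed by 0.12, 0.14 and -0.05, and Clec4a2 (DCIR), an inhibitory receptor, by 0.08, -0.03 and 0.0054, in the TSC22D4, LCN13 and combined groups.

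Clec4a3 had 11.59, 11.88 and 11.85 in controls, 11.54, 11.56 and 11.42 in the LCN13 group, 11.79, 11.76 and 11.84 in the TSC22D4 group, and 11.63, 11.78 and 11.60 in the combined group. The LCN13 arrays lay below all 3 controls, by -0.27 on average (limma adjusted p = 0.178). This difference passed with array weights (-0.30, limma adjusted p = 0.0462) and without control replicate 1 (-0.36, limma adjusted p = 0.0244). Under the same changes Clec4a3 also passed in the averaged LCN13 effect (0.0484 and 0.0262) and between the TSC22D4 and LCN13 groups (0.0465 and 0.0464). Clec4a4 passed between those groups with array weights (0.0333) and a variance trend (0.0411). Clec4a1 had 9.77, 10.12 and 10.23 in controls, 9.77, 9.68 and 9.44 in the LCN13 group, 10.11, 9.89 and 10.28 in the TSC22D4 group, and 9.87, 10.00 and 9.70 in the combined group. It overlapped with control in the LCN13 group, by its replicate 5, and differed there by -0.41 (-0.74 to -0.08, limma adjusted p = 0.276), 0.06 in the TSC22D4 group and -0.19 in the combined group. The Clec4a genes are close copies of each other, so their probe sets may share signal.

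**Figure D4:**
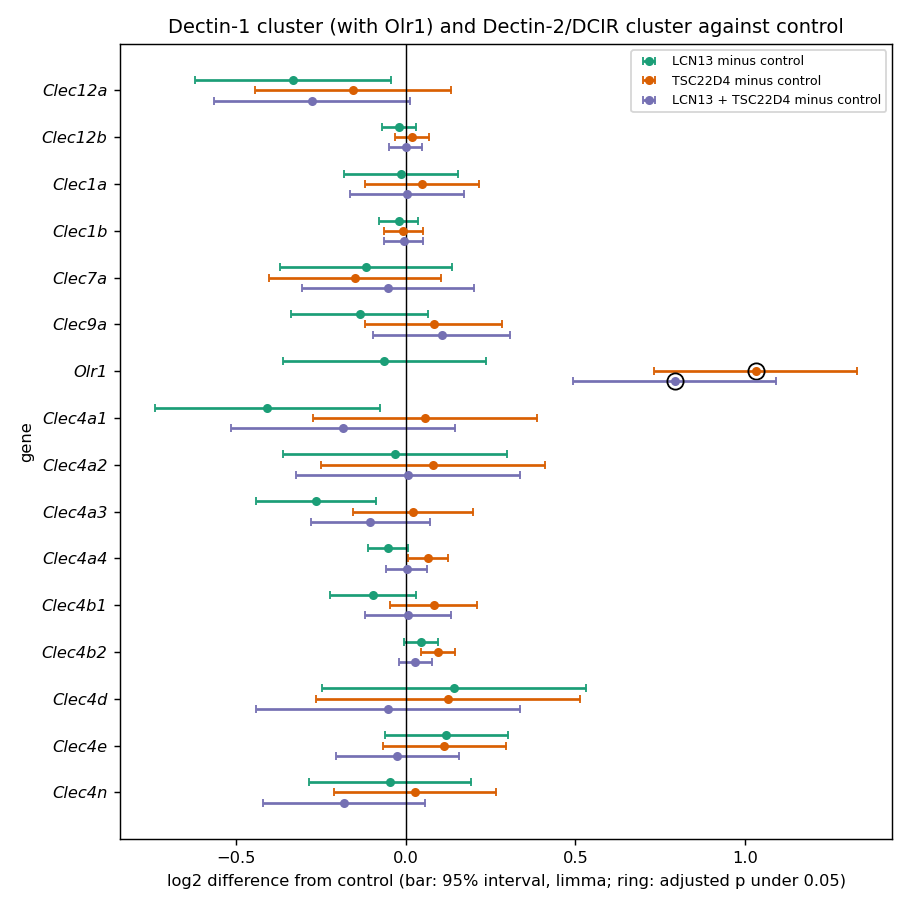
Log2 difference from control with its 95% interval for the genes around Dectin-1 (7) and around Dectin-2 and DCIR (9) in each group with a gene-directed virus. Olr1 lies at 1.03 and 0.79 in the TSC22D4 and combined groups, while the other 15 genes lie between -0.41 and 0.14.

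Myeloid and hepatic receptors outside these clusters gave 0 of 4 passing in each comparison with control. Clec10a (MGL1), a galactose-binding receptor of macrophages and dendritic cells in fat, had 7.99, 8.80 and 8.17 in controls, 7.85, 8.04 and 8.08 in the LCN13 group, 8.33, 7.95 and 8.38 in the TSC22D4 group, and 8.00, 8.20 and 7.90 in the combined group. Control replicate 2 stood above all other arrays, and the differences of -0.33, -0.10 and -0.29 were within the spread (limma adjusted p = 0.555, 0.909 and 0.719). Clec5a (MDL-1), which signals through DAP12, lay below the table median, and its combined arrays lay below all controls, by -0.13 on average (limma adjusted p = 0.209). Clec4f of Kupffer cells and Clec4g of liver sinusoids also lay below the median, and differed by no more than 0.03 in size.

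The Clec2 genes encode ligands of NK cell receptors, and of their 7 probe sets only that of Clec2d, the ligand of the inhibitory receptor Klrb1b, lay above the median. The Clec2d promoter (RefSeq, GRCm38.p6, chr6:129180365-129180664, plus strand) is shown because it holds the letters of the interferon-stimulated response element, found in 3.44% of all promoters and in 3 of the 34 receptors (Clec2d, Clec4b1 and Clec4d). Capitals mark that match, at bases 62 to 71, and 3 matches to AGGTCA on either strand.
Clec2d: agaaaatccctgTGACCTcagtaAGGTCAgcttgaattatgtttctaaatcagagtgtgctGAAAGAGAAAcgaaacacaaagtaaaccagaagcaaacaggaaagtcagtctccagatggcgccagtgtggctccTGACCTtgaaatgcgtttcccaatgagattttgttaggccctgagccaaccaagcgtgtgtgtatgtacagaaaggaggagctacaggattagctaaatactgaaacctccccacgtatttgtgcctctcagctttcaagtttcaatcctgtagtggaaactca
Genes known to be induced by interferon were far lower in the groups with a gene-directed virus. Of 28 measured genes in such a list, 26, 25 and 26 passed limma as lower in the TSC22D4, LCN13 and combined groups. Of all genes 0.88%, 1.04% and 1.03% passed as lower there. The median differences of the list were -1.72, -1.84 and -1.94. Clec2d is no member of that list, and the motif match was not tested.

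Clec2d signals were 12.23, 12.10 and 12.00 in controls, 11.96, 11.93 and 11.76 in the LCN13 group, 11.76, 11.77 and 11.85 in the TSC22D4 group, and 11.80, 11.89 and 11.84 in the combined group. All 3 controls lay above the other 9 arrays, by less than the spread within the controls at the nearest. The mean of the 3 gene-directed groups fell by 0.27 (95% interval -0.39 to -0.14, limma adjusted p = 0.0472). In that comparison 4 of the 40 receptors passed, Olr1, Cd209a and Cd209c as higher and Clec2d as lower, where 1.66% of all genes passed, 0.384% as higher and 1.27% as lower. The single groups differed from control by -0.31, -0.23 and -0.26 in the TSC22D4, LCN13 and combined groups (limma adjusted p = 0.0697, 0.181 and 0.120). The call on the mean was lost in 10 of 12 cases when 1 array was left out, all but those without control replicate 3 or LCN13 replicate 8 (up to 0.145), and with robust variance estimates (0.0531). The TSC22D4 difference passed with array weights (0.0234), with a trend of the variance on the level (0.0406) and among genes above the median level (0.0457). It also passed without control replicate 3 (0.0489) or LCN13 replicate 8 (0.0353), although no LCN13 array enters this difference.

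Secreted, endothelial and other Clec genes gave 0 of 6 passing in each comparison with control, with differences from -0.09 to 0.22. Clec14a, a protein of angiogenic endothelium, had 6.64, 6.59 and 6.64 in controls, 6.77, 6.69 and 6.79 in the LCN13 group, 6.85, 6.68 and 7.01 in the TSC22D4 group, and 6.55, 6.71 and 6.67 in the combined group. The LCN13 and TSC22D4 arrays lay above the controls, by 0.13 and 0.22 on average (limma adjusted p = 0.542 and 0.246), and the combined arrays overlapped them. Clec16a, which acts in vesicle traffic and the removal of mitochondria, differed by 0.13, 0.06 and 0.07 in the TSC22D4, LCN13 and combined groups. Clec3b (tetranectin), a secreted plasminogen-binding protein, differed by -0.01, 0.05 and 0.06, and Clec11a, a secreted growth factor of the bone marrow, by 0.05, 0.03 and -0.0087.

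Adaptors and signalling genes behind the receptors gave no call in the TSC22D4 group and few in the others. Of 61 measured genes, 0 passed limma in the TSC22D4 group (7 at an unadjusted p under 0.05), where 1.17% of all genes passed. In the LCN13 group 1 (1.64%) was lower, close to the 1.44% of all genes that passed, 1.04% as lower. In the combined group 1 was higher and 2 lower, where 1.34% of all genes passed, 0.315% as higher and 1.03% as lower. The medians were -0.03, 0.0011 and -0.04 in that order. Pik3ap1, an adaptor of phosphoinositide 3-kinase in immune cells, fell by 0.67 in the LCN13 group (limma adjusted p = 0.0473) and by 0.78 in the combined group (0.0232). In the combined group the kinase gene Mapk14 (p38 alpha) fell by 0.20 (limma adjusted p = 0.0278) and Usp15, a deubiquitinase, rose by 0.24 (limma adjusted p = 0.0499). The genes for the proximal steps did not pass. Syk differed by 0.01, -0.16 and 0.10 in the TSC22D4, LCN13 and combined groups, Card9 by -0.05, -0.21 and -0.18, Fcer1g (the Fc receptor gamma chain) by -0.21, -0.13 and -0.19, and Tyrobp (DAP12) by 0.10, -0.08 and -0.03.

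Among relatives with the same lectin fold but other names, the largest fall was that of Cd72, an inhibitory receptor known from B cells. Its mean was 11.3 ± 0.269 (SD, n = 3) in controls, 10.0 ± 0.270 in the TSC22D4 group, 10.1 ± 0.164 in the LCN13 group and 9.70 ± 0.150 in the combined group. It fell in all 3, with differences of -1.25, -1.23 and -1.59 (limma adjusted p = 0.00629, 0.00622 and 0.0012). Of 49 measured relatives, 1 was lower in the TSC22D4 group, 2 in the LCN13 group and 2 in the combined group. Of all genes 0.88%, 1.04% and 1.03% passed as lower in these groups. The other relative in the LCN13 and combined groups was Klrk1 (NKG2D), an activating receptor of NK cells. Klrk1 fell by 0.38 and 0.34 there (limma adjusted p = 0.0088 and 0.0174). Between the TSC22D4 and LCN13 groups only Ncan (neurocan), a matrix proteoglycan, passed, higher by 1.72 (limma adjusted p = 0.0451). There 1.03% of all genes passed, 0.457% as higher. Mrc1, the mannose receptor of macrophages, differed from control by 0.10, -0.02 and -0.05 in the TSC22D4, LCN13 and combined groups, and Mgl2, the neighbour of Clec10a, by 0.29, 0.51 and 0.33, none of which passed. Of 12 measured NK cell markers Gzmb (granzyme B) passed as lower in the TSC22D4 group and Gzmb and Klrk1 in each of the others. The shares of all genes were again 0.88%, 1.04% and 1.03% in the TSC22D4, LCN13 and combined groups. Ncr1 was higher by 0.83 in the TSC22D4 group than in the LCN13 group (limma adjusted p = 0.036), where 0.457% of all genes passed as higher. Without LCN13 replicates 5 and 6, 0 genes passed between those groups, Ncan and Ncr1 included.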

How the data were processed

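Abdominal fat RNA of 12 mice, 3 in each of 4 groups, was measured on Affymetrix arrays, and groups were taken from the labels. The authors deposited log2 values made with RMA, which corrects the background, normalizes the arrays and combines the probes, per the submitters' processing notes. Its version and settings, the probe sets' definitions and a genome build were not given in the sources used here. RMA brought the arrays to one distribution (sorted columns differed by at most 0.00188), which removes changes shared by most genes. Of 25206 probe sets, 23185 had 1 gene symbol, 0 several and 2021 none.

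All named genes were fitted with limma 3.58.1 in R 4.3.3 over the 12 arrays, 1 mean per group, with no filter and no covariate. Residual SDs had a median of 0.0647 on 8 degrees of freedom, with 1.38 from the prior. Tests were two-sided, and a gene passed at a Benjamini-Hochberg adjusted p under 0.05 over all genes within a comparison. Since the arrays are of separate animals per the labels, p-values cover variation between the animals put on arrays. The labels call these animals representative, so their spread may understate that among all treated animals, and the p-values may then be too small. This was not tested. On data simulated for the TSC22D4 comparison (23185 genes), 83% of changes of 0.5 and 97% of changes of 1 were recovered, with 11 false calls. The changed genes were drawn from all named genes, many of them with less spread than the receptors described here. Group SDs of Olr1, for example, reached 0.256. Recovery among the receptors was not estimated, so a receptor that did not pass may still differ.

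The members and lists were chosen with earlier results of these data known. Signals on every array are given for receptors that passed in any comparison, for the 3 brightest probe sets and for the largest difference in each role group, and, chosen after their values were seen, for the other Cd209 genes. Promoters came from RefSeq (GRCm38.p6), which held 34 of the 40. Alternatives were array weights, variance trend, robust variances, other scalings and gene sets, fits on the compared groups alone and leaving out arrays. The fit without LCN13 replicates 5 and 6 was chosen after seeing the data.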

Additional observations from a re-analysis of the deposited data

Results flagged for a closer look

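Olr1 responded differently to the single viruses. The TSC22D4 effect against control minus the LCN13 effect against control was 1.10 (limma adjusted p = 0.0188), tested directly as the difference between these groups. The signals were higher on 3 of 3 TSC22D4 arrays than on all 3 LCN13 arrays. The call was lost in 5 of the 12 fits without 1 array (adjusted p up to 0.0727) and without LCN13 replicates 5 and 6 (0.302).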

How the results depend on the processing

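No paired analysis was possible because the groups share no replicate numbers. Among all genes, array weights raised the counts of genes passing, giving 680 in place of 333 for LCN13 against control, 447 for 272 for TSC22D4 and 518 for 311 for the combined group. They also gave 1178 for 239 for TSC22D4 against LCN13, 14 for 2 for the combined against the LCN13 group, 810 for 323 and 614 for 251 for the averaged TSC22D4 and LCN13 effects, 596 for 384 for the mean of the gene-directed groups and 935 for 374 for the F test. With only the compared arrays these counts were 102, 142, 126, 75 and 0 for the first 5. Without LCN13 replicates 5 and 6 they were 100 for LCN13 against control, 0 for TSC22D4 against LCN13, 0 for the combined against the LCN13 group, 61 and 90 for the averaged effects, 35 for 92 for the interaction and 171 for the F test. For the combined against the LCN13 group, genes above the median gave 7, and trend and robust variances 0. Leaving out 1 array gave 205 to 426 for LCN13, 153 to 350 for TSC22D4 and 165 to 376 for the combined group against control. It gave 2 to 582 for TSC22D4 against LCN13, 0 to 94 and 0 to 4 for the combined against the LCN13 and TSC22D4 groups, 132 to 718 and 135 to 389 for the averaged effects, 233 to 420 for the mean of the gene-directed groups, 47 to 104 for the interaction and 209 to 531 for the F test. No result reversed. Over all 40 receptors and 11 comparisons, the 12 fits without 1 array kept 132 receptor calls, lost 72 and gained 17, and the 9 other alternatives kept 125, lost 14 and gained 25. Besides those given with the results, the averaged and F calls of Cd209c were each lost in 11 of 12 cases without 1 array. Its call on the mean of the gene-directed groups was lost in 7 and that of Olr1 in 8 (up to 0.127). Without LCN13 replicates 5 and 6 the averaged TSC22D4 call of Cd209a was lost, with a difference of 0.45. The same Cd209c calls were lost there too, with an averaged difference of 0.0907 and a difference of 0.0890 for the mean of the gene-directed groups. The averaged Cd209c call was also lost with a variance trend, and its F call with a variance trend or robust variances. Further gained calls were those of Cd209e with a variance trend (TSC22D4 group 0.0273, mean of the gene-directed groups 0.0376) and without TSC22D4 replicate 11 (LCN13 group 0.0446, that mean 0.0422), Cd209d among genes above the median (that mean 0.0432), Clec4b2 with a trend (TSC22D4 group 0.0288), and Cd209g without LCN13 replicate 8 (averaged TSC22D4 effect 0.0452). Clec2d gained the averaged TSC22D4 effect (0.0347) and the F test (0.0438) with array weights, and the former without LCN13 replicate 8 (0.0390). Where the array left out was of neither compared group, the difference itself stayed the same. The cause of these shifts was not tested.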

Other observations

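Within groups, some receptors varied together across the 12 arrays, after each group's mean was taken off. Over the 20 receptors above the table median there were 190 pairs with a median Pearson r of 0.0381, and 6 pairs exceeded 0.8. Clec12a with Clec4a2 had r = 0.934 (Spearman rho 0.811), Clec4a2 with Clec4a1 0.910, Clec12a with Clec4a1 0.904, Clec4a1 with Clec4a3 0.866, Clec10a with Clec4d 0.855 and Clec12a with Clec4a3 0.801. Clec12a is a neighbour of Dectin-1 and the Clec4a genes are neighbours of Dectin-2, and all are known from myeloid cells. Cd209a with Cd209f reached 0.776 and Cd209d with Cd209b 0.751. The points share their array and normalization, and the Clec4a probe sets may share signal.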
